A study of Saccharomyces cerevisiae with 22 samples.

Results

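Capped RNA 5′ ends of Saccharomyces cerevisiae cells carrying snf2Q928K were set against those of cells carrying snf2W935R, both after 1 h in 5 mM dithiothreitol (DTT). All start clusters with a value in both of the authors' DTT tables were taken, which gave 5193 of the 5195 clusters of the series. A start cluster is a short stretch of the genome in which the mapped 5′ ends pile up. The snf2Q928K group (genotype snf2Δ; snf2-Q928K::LEU2) and the snf2W935R group (snf2Δ; snf2-W935R::LEU2) had 2 libraries each. Both were compared by the authors with the same 2 wild-type libraries (snf2Δ; SNF2::LEU2) from DTT-treated cells, called wild type here. All 3 strains are W303 derivatives in which the deletion of SNF2 is complemented by an integrated copy marked with LEU2, and all were grown in YPD to log phase. Each culture was split into an untreated flask and one given DTT, and the 2 replicates of a group were collected on separate days. The whole series holds 22 libraries of 5 genotypes.

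Swi/Snf is a chromatin remodelling complex that slides and evicts nucleosomes, and Snf2 is its ATPase. It is known both for opening promoters and, at a few loci, for repression that depends on transcription of an upstream RNA through the promoter of a gene. DTT reduces disulphide bonds, unfolds proteins in the endoplasmic reticulum (ER) and sets off the unfolded protein response, which works through the kinase Ire1 and the transcription factor Hac1. In that response an RNA that begins upstream of HNT1, a gene for an adenosine monophosphoramidase, runs across the HNT1 promoter and silences the start close to the gene. At SER3, which encodes the phosphoglycerate dehydrogenase of serine synthesis, transcription of the noncoding RNA SRG1 plays the same part and is known to need Swi/Snf.

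The altered residues lie 7 codons apart in the ATPase domain of Snf2. SNF2 (YOR290C) has 1703 codons; Q928K puts lysine in place of a glutamine and W935R arginine in place of a tryptophan. The reference sequence of codons 918 to 945 (build R64, chrXV:857424-857507, minus strand) is printed to show both positions, with the glutamine codon CAA and the tryptophan codon TGG in capitals. The reference strain is S288C, and the sources used here do not name the bases changed in the mutant alleles.
SNF2 codons: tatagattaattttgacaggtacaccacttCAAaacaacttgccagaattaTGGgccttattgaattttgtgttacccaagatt

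The 200 bases before the 5′ edge of 4 clusters that differed between the mutants are printed next, read 5′ to 3′ along the strand of the gene in build R64. They were chosen for the upstream start of HNT1, for SER3, and for the 2 iron transporter genes ENB1 and SIT1. The capitals in the HNT1 window (chrIV:239818-240017, minus strand) mark CAGNGTG, 147 bases before the cluster, and TACGTG on the other strand, 74 bases before it, which are core letters of unfolded protein response elements. The capitals in the SER3 window (chrV:322435-322634, plus strand) mark TATAAA, 52 bases before the cluster. The capitals in the ENB1 window (chrXV:21351-21550, minus strand) and the SIT1 window (chrV:27416-27615, plus strand) mark TGCACCC on either strand, the core letters of the sites of the iron regulators Aft1 and Aft2.
HNT1 upstream start: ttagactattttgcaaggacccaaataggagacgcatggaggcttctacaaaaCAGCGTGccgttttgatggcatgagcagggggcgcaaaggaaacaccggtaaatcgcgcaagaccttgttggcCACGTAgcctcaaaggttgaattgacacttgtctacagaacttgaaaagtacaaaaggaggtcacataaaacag
SER3 start: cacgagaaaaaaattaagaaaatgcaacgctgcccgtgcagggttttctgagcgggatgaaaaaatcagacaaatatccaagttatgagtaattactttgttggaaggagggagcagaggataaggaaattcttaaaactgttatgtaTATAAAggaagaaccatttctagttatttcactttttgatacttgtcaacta
ENB1 start: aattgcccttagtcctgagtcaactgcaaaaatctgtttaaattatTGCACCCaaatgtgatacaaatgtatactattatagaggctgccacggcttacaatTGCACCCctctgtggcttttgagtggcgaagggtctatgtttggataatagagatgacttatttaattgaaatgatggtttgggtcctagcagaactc
SIT1 start: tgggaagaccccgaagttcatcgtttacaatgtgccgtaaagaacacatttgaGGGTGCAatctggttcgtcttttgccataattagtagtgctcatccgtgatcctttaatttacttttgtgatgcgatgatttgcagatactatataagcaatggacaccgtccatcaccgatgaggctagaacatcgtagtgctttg

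The tables hold comparisons and not values per library, so each level below is a group mean of normalized counts over 2 libraries with no SD, and how many libraries share a direction is unknown. The log2 difference is the log2 fold change of snf2Q928K over wild type minus that of snf2W935R over wild type, so positive means higher in snf2Q928K. Its standard error (SE) is the root of the summed squares of the 2 deposited SEs, and the two-sided p came from a Wald test with Benjamini-Hochberg adjustment over all 5193 clusters. A cluster with an adjusted p under 0.05 is called. Because the wild-type libraries enter both deposited SEs but cancel in the difference, this summed SE is too wide. A narrower SE, which leaves out the term of the wild-type mean, is called the SE of the mutant arms and is named where used. Its spread was still solved from the deposited SEs, which cover mutant and wild-type libraries together. Sums of mean normalized counts were 7.52e+06 in the snf2Q928K table and 6.78e+06 in the snf2W935R table, and depth per library is unknown. The median deposited SE, over the 4064 clusters with a mean of at least 50 in both tables, was 0.381 for snf2Q928K and 0.479 for snf2W935R.

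Most start clusters differed little between the mutants under DTT, and a small set stood apart. Over the 4064 better measured clusters the median log2 difference was -0.02, the quartiles were -0.37 and 0.32, and 92.2% of clusters lay within 2-fold. Of all 5193 clusters, 15 were called (0.289%), 2 higher in snf2Q928K (0.0385%) and 13 lower (0.25%). All 15 differed at least 2-fold, by 1.81 to 3.38 on the log2 scale. In bulk cultures, fewer cells that use a start and less use per cell cannot be told apart. The called cluster nearest the threshold had an adjusted p of 0.0492 and the nearest uncalled one 0.0780. In the authors' deposited tables, 754 of 5194 clusters (14.5%) were called in snf2Q928K over wild type, 7.34% higher and 7.18% lower. In the authors' deposited table for snf2W935R, which has the wider SEs, 279 of 5193 (5.37%) were called, 2.54% higher and 2.83% lower. The median absolute log2 fold change over wild type, taken from the authors' deposited tables for the 4064 clusters, was 0.46 in each mutant.

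**Figure D1:**
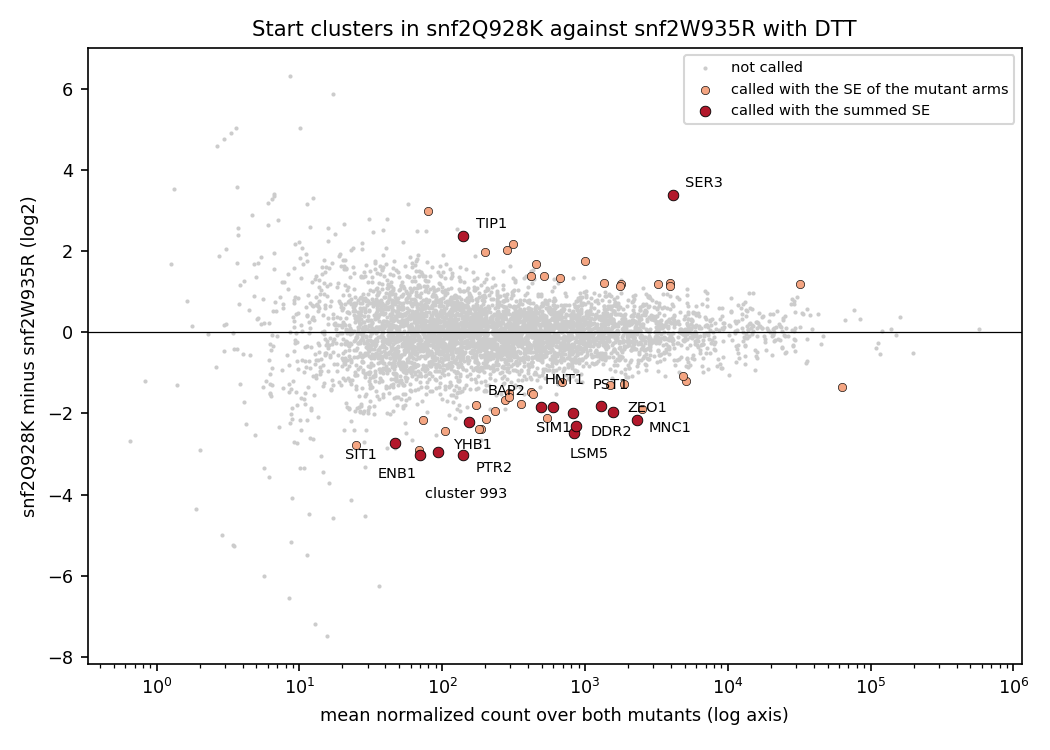
Log2 difference of snf2Q928K minus snf2W935R with DTT (vertical axis) against the mean normalized count over both mutants (horizontal log axis), 1 point a start cluster, with the 15 clusters called with the summed SE in dark red and the other 39 called with the SE of the mutant arms in orange. SER3 stands alone at 3.38 among strongly used clusters, TIP1 is the only other dark red point above 0, and 13 dark red points lie below -1.8.

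The largest difference by adjusted p was at SER3 (YER081W), which was 10.4-fold higher in snf2Q928K. With DTT its start cluster (chromosome V, 322635 to 322693, plus strand, 22 bp before the coding start) had 7534 normalized counts in snf2Q928K, 726 in snf2W935R and 571 in wild type. The log2 difference was 3.38 ± 0.50 (SE; Benjamini-Hochberg adjusted p = 4.97e-08). The authors' deposited table put snf2Q928K over wild type at 3.72 ± 0.28 on the log2 scale (Benjamini-Hochberg adjusted p = 2.55e-38). The authors' deposited table put snf2W935R over wild type at 0.35 ± 0.41 (adjusted p = 0.772), so the authors' deposited tables called SER3 in the first mutant only. The same order held without DTT, where SER3 had 12104 normalized counts in snf2Q928K, 341 in snf2W935R and 204 in wild type (log2 difference 5.15 ± 0.53, Benjamini-Hochberg adjusted p = 2.72e-18). Levels with DTT and untreated come from tables that were scaled separately. The start of SRG1 was not analysed here. Of the other 12 measured genes of serine, glycine and one-carbon metabolism none was called with either SE, and the median log2 difference of the list was 0.15. SHM2, the cytosolic serine hydroxymethyltransferase, had 2956 counts in snf2Q928K, 1913 in snf2W935R and 1019 in wild type.

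At HNT1 (YDL125C) the upstream start was lower in snf2Q928K than in snf2W935R. The upstream cluster (chromosome IV, 239755 to 239817, minus strand, 180 bp before the coding start) had 334 normalized counts in snf2Q928K, 1323 in snf2W935R and 2044 in wild type, a log2 difference of -1.98 ± 0.50 (Benjamini-Hochberg adjusted p = 0.0288). Next to it, the start-proximal cluster (239563 to 239608), which spans the coding start, had 4965 counts in snf2Q928K, 2560.0 in snf2W935R and 127 in wild type. Its log2 difference of 0.95 ± 0.47 was not called with either SE, and its 95% interval ran from 0.03 to 1.88. So snf2W935R had both starts in use, while snf2Q928K had mostly the start-proximal one and wild type mostly the upstream one. The upstream cluster held 6.31% of the counts of both HNT1 clusters in snf2Q928K, 34.1% in snf2W935R and 94.1% in wild type. Without DTT these shares were 1.68% in snf2Q928K, 3.33% in snf2W935R and 13.3% in wild type, and the upstream log2 difference was -0.53 ± 0.81, not called. The divergent neighbour YDL124W, whose coding start lies 473 bp from the upstream cluster, had a log2 difference of -0.20 and was not called.

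LSM5 (YER146W), for a subunit of the Lsm ring that binds RNA, also has a start pair and a lower upstream start in snf2Q928K. Its upstream cluster (chromosome V, 462321 to 462461, plus strand, 194 bp before the coding start) had 254 counts in snf2Q928K, 1419 in snf2W935R and 2645 in wild type (log2 difference -2.48 ± 0.46, Benjamini-Hochberg adjusted p = 0.000116). The other LSM5 cluster had 1938 counts in snf2Q928K, 2402 in snf2W935R and 1687 in wild type and was not called. The mutants lay 5.58-fold apart at the upstream LSM5 start and 1.24-fold at the other one. The upstream share was 11.6% in snf2Q928K, 37.1% in snf2W935R and 61.1% in wild type. Untreated it was 4.02% in snf2Q928K, 6.89% in snf2W935R and 28.2% in wild type. The upstream LSM5 cluster overlaps the annotated open reading frame YER145C-A on the other strand.

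Start choice was then tested in all 488 genes with at least 2 clusters, as the log2 difference at the more upstream of the 2 most used clusters minus that at the other. HNT1 alone was called (0.205%), at -2.94 ± 0.68 (Benjamini-Hochberg adjusted p = 0.00847, Wald test). With the SE of the mutant arms alone 5 genes were called (1.02%), each with a lower upstream share in snf2Q928K, and LSM5 followed HNT1 at -2.17 (adjusted p = 0.00103, Benjamini-Hochberg). The other 3 genes, ERG27, PTR2 and EMI2, each had an adjusted p of 0.0447 with that SE. In PTR2 the upstream share was 47.9% in snf2Q928K, 91.9% in snf2W935R and 80.7% in wild type. EMI2 had 9.00% in snf2Q928K, 53.7% in snf2W935R and 17.9% in wild type, so that snf2W935R was the mutant farther from wild type. In ERG27, of ergosterol synthesis, the upstream cluster was rare in every genotype, at 0.0074% in snf2Q928K, 0.109% in snf2W935R and 1.01% in wild type. In KAR2, the ER Hsp70 chaperone, the main cluster held 98.4% of the counts of the pair compared in snf2Q928K, 97.8% in snf2W935R and 97.9% in wild type. The pair was not called. The other cluster of the pair lay 1421 bp downstream of the main one. It had 77.2 counts in snf2Q928K, 86.3 in snf2W935R and 283 in wild type. A further cluster assigned to KAR2 outside that pair, 4299, had 91.8 counts in snf2Q928K, 120 in snf2W935R and 2.13 in wild type and was not called between the mutants. The authors' deposited tables place that cluster above wild type in both, by 5.43 in snf2Q928K and 5.81 in snf2W935R (log2; their adjusted p = 3.59e-05 and 3.05e-05).

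**Figure D2:**
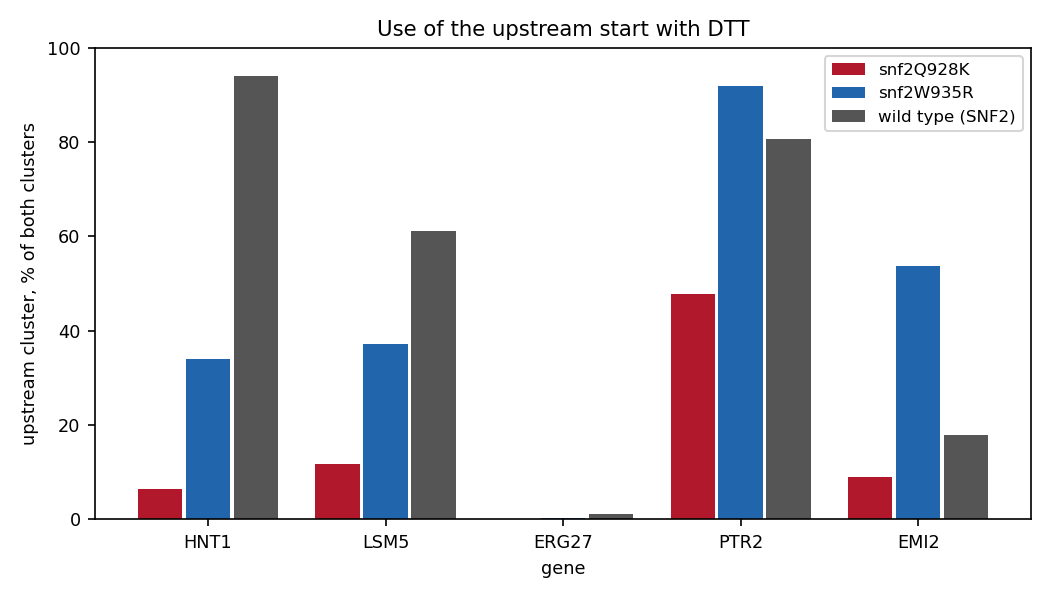
Share of the upstream cluster in the counts of the 2 most used clusters of a gene with DTT (vertical axis, %), for the 5 genes whose start choice differed between the mutants with the SE of the mutant arms, with bars for snf2Q928K, snf2W935R and wild type computed from group means and without error bars. HNT1 is at 6.31% in snf2Q928K, 34.1% in snf2W935R and 94.1% in wild type, and the ERG27 bars are all near 0.

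The siderophore transporter genes ENB1 and SIT1 were lower in snf2Q928K than in snf2W935R. ENB1 (YOL158C), the transporter of ferric enterobactin, had 15.2 counts in snf2Q928K, 123 in snf2W935R and 2289 in wild type at its cluster 12 bp before the coding start (chromosome XV, 21296 to 21350, minus strand). The log2 difference was -3.02 ± 0.53 (Benjamini-Hochberg adjusted p = 3.73e-05). SIT1 (YEL065W), the ferrioxamine B transporter, had 12.4 counts in snf2Q928K, 81.6 in snf2W935R and 1322 in wild type (chromosome V, 27616 to 27658, plus strand), a log2 difference of -2.72 ± 0.70 (Benjamini-Hochberg adjusted p = 0.0432). The mutants were thus 8.10-fold apart at ENB1 and 6.58-fold at SIT1, with both mutants under wild type at these 2 clusters. Another ENB1 cluster, 138.5 bp before the coding start, had 54.1 counts in snf2Q928K, 102 in snf2W935R and 27.9 in wild type and was not called. In the gene lists each gene is represented by its main cluster, the one with the highest mean over both mutants. For ENB1 that is the other cluster, with a log2 difference of -0.91, and not the called one, which wild type used more. Of the 22 measured iron uptake genes, SIT1 was the only one called by its main cluster, beside 2 called higher and 9 lower among 3728 genes. Of these genes 17 had a difference below 0, beside 1938 of 3728 genes by main cluster (list median -0.21, against -0.01 over all clusters). The list medians over wild type in the authors' deposited tables were -1.58 in snf2Q928K and -1.10 in snf2W935R. The reductase FRE1 was called lower with the SE of the mutant arms only, with 414 counts in snf2Q928K, 974 in snf2W935R and 1134 in wild type (adjusted p = 0.0458, Benjamini-Hochberg). FIT3, a cell wall mannoprotein that retains siderophore iron, lay on the other side with 3503 counts in snf2Q928K, 1825 in snf2W935R and 25776 in wild type, not called. TGCACCC, searched on both strands, is held by 57 of all 5193 windows of 200 bases (1.10%), and by 2 of the 13 windows of clusters called lower, those of ENB1 and SIT1 printed above.

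The permease genes PTR2, at its more upstream start, and BAP2 were lower in snf2Q928K. PTR2 (YKR093W), the di- and tripeptide transporter, had 30.5 counts in snf2Q928K, 249 in snf2W935R and 510 in wild type (chromosome XI, 615520 to 615637, plus strand), a log2 difference of -3.03 ± 0.60 (Benjamini-Hochberg adjusted p = 0.00049). Untreated, PTR2 was at 10.4 counts in snf2Q928K, 339 in snf2W935R and 1263 in wild type and was also called. BAP2 (YBR068C), the permease for leucine, isoleucine and valine, had 215 counts in snf2Q928K, 775 in snf2W935R and 1509 in wild type (chromosome II, 375712 to 375745, minus strand; log2 difference -1.85 ± 0.48, Benjamini-Hochberg adjusted p = 0.0459). These were the only 2 of 18 measured permeases called, 9 had differences above 0, and the median was -0.03. Among 3728 genes by main cluster, 2 were called higher and 9 lower with the summed SE. Of those 3728, 1790 lay above 0, and the median was -0.03. The other PTR2 cluster, with 33.3 counts in snf2Q928K, had a log2 difference of 0.59 and was not called.

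Cell wall genes moved in both directions. TIP1 (YBR067C), a cold-induced mannoprotein of the cell wall and the gene next to BAP2 on chromosome II, was the other cluster called higher in snf2Q928K. It had 234 counts in snf2Q928K, 45.6 in snf2W935R and 587 in wild type (372739 to 372809, minus strand; log2 difference 2.36 ± 0.62, Benjamini-Hochberg adjusted p = 0.0492). TIP1 was the only 1 of the 15 called clusters at which snf2W935R lay farther from wild type than snf2Q928K. SIM1 (YIL123W), a SUN family protein of the cell wall and septum, had 259 counts in snf2Q928K, 936 in snf2W935R and 3652 in wild type (chromosome IX, 128037 to 128166; log2 difference -1.85 ± 0.47, Benjamini-Hochberg adjusted p = 0.0317). PST1 (YDR055W), a wall protein known to rise when the cell integrity pathway is active, had 572 counts in snf2Q928K, 2004 in snf2W935R and 2171 in wild type (chromosome IV, 563462 to 563467; log2 difference -1.81 ± 0.44, adjusted p = 0.0238). ZEO1 (YOL109W), a membrane-associated regulator of that pathway, had 643 counts in snf2Q928K, 2500 in snf2W935R and 2796 in wild type (chromosome XV, 110203 to 110343; log2 difference -1.96 ± 0.47, adjusted p = 0.0238). At PST1 and ZEO1 the snf2W935R mean was close to wild type. Of 45 measured cell wall genes, TIP1 was called higher and PST1 and SIM1 lower, 30 differences were below 0 and the median was -0.22. Over the main clusters of 3728 genes, 2 were called higher and 9 lower, 1938 differences were below 0 and the median was -0.03.

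DDR2, YHB1 and MNC1 were also lower in snf2Q928K. DDR2 (YOL052C-A), a stress gene of unknown molecular role, had 291 counts in snf2Q928K, 1430.0 in snf2W935R and 682 in wild type (chromosome XV, 232039 to 232059, minus strand; log2 difference -2.30 ± 0.56, Benjamini-Hochberg adjusted p = 0.0238). It was the only 1 of the 13 lower clusters with more counts in snf2W935R than in wild type, at a log2 value of 1.07 ± 0.46 by the authors' deposited table, not called (adjusted p = 0.181, Benjamini-Hochberg). YHB1 (YGR234W), the flavohaemoglobin that removes nitric oxide, had 54.9 counts in snf2Q928K, 255 in snf2W935R and 1330.0 in wild type (chromosome VII, 959849 to 959886; log2 difference -2.22 ± 0.54, adjusted p = 0.0238). MNC1 (YBR056W-A), a small plasma membrane protein, had 841 counts in snf2Q928K, 3753 in snf2W935R and 3873 in wild type (chromosome II, 351212 to 351272; log2 difference -2.16 ± 0.49, adjusted p = 0.0119). By the authors' deposited table, DTT raised MNC1 in wild type by 3.59 log2 units. Of 17 measured general stress genes, DDR2 was the only one called and 13 lay below 0 (median -0.73). Over the main clusters of 3728 genes, 2 were called higher and 9 lower, and 1938 lay below 0 (median -0.03). HSP26, in the general stress list at -2.91, had 0.47 counts in snf2Q928K and 3.57 in snf2W935R, and was not called. SPI1, a stress-induced wall protein in that list and in the cell wall list, had 0.93 counts in snf2Q928K, under the floor of 1.5 per library (3 counts over the group), 71.7 in snf2W935R and 65.9 in wild type, and was not called (adjusted p = 0.185, Benjamini-Hochberg).

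The last called cluster, 993, is intergenic in the authors' assignment (chromosome IV, 59125 to 59154, plus strand). It lies on the strand opposite to HBT1, a gene of cell polarity, and overlaps its coding region. It had 21.4 counts in snf2Q928K, 165 in snf2W935R and 334 in wild type (log2 difference -2.95 ± 0.72, Benjamini-Hochberg adjusted p = 0.0238). In all 13 lower clusters snf2Q928K had the lowest mean of the 3 genotypes. The snf2Q928K mean was farther from wild type on the log2 scale than that of snf2W935R at 14 of the 15, beside 2058 of the 4064 better measured clusters (50.6%). The 15 were picked for a difference between the mutants, so this is a description, and the 2 values share the wild-type libraries.

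**Figure D3:**
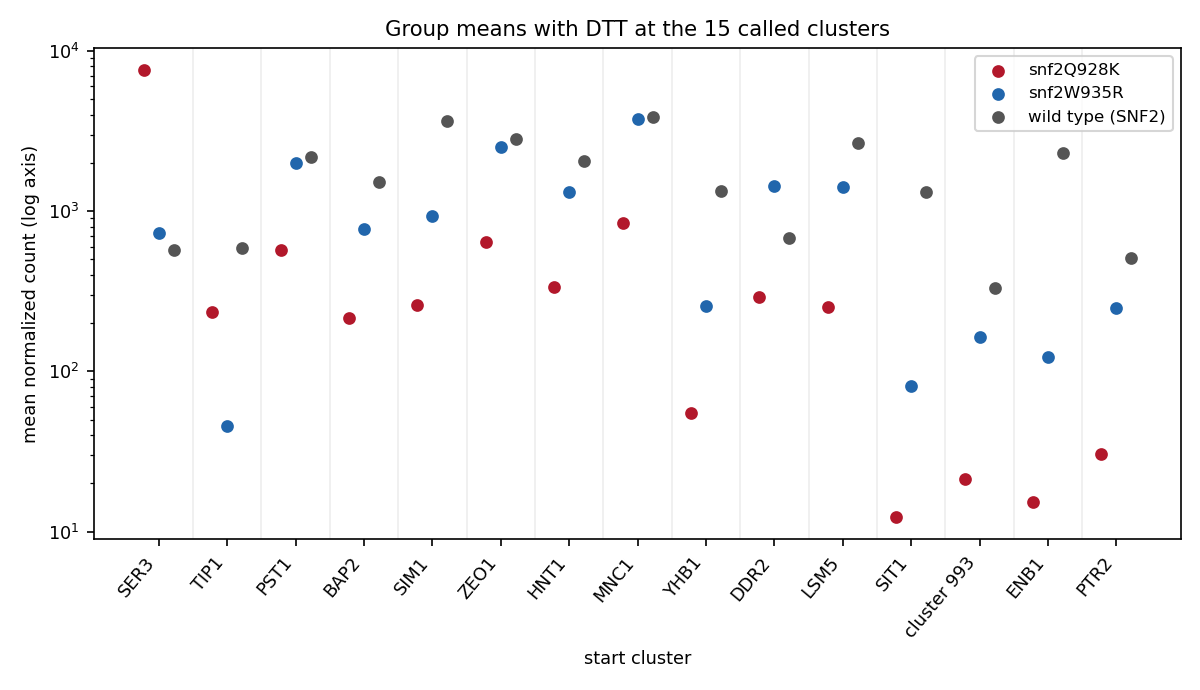
Group means of normalized counts with DTT (vertical log axis) for snf2Q928K, snf2W935R and wild type at the 15 called clusters, ordered from the highest to the lowest log2 difference and without error bars since values per library are not in the tables used. At SER3 snf2Q928K is at 7534 against 726 in snf2W935R and 571 in wild type, and in the 13 clusters from PST1 to PTR2 the snf2Q928K point is the lowest.

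By position, 14 of the 15 called clusters lay upstream of a coding start and 1 was intergenic, while 3565 of the 5193 tested (68.7%) lay upstream, 754 inside a gene and 708 between genes. In 11 of the 15 the cluster was the most used one of its gene by the mean over both mutants, beside 3728 of the 5193 tested. The called HNT1, LSM5 and ENB1 clusters were not, though in wild type each had more counts than the other cluster of its gene given above. The called clusters had a median width of 59 bp, against 42 bp over all clusters. The letters TATAAA, searched on both strands, are in 31.3% of all windows of 200 bases, in both windows of clusters called higher and in 2 of 13 (15.4%) of those called lower. With the SE of the mutant arms these counts were 13 of 18 (72.2%) for clusters higher in snf2Q928K and 10 of 36 (27.8%) for lower ones. The stress response letters AGGGG are in 15.3% of all windows and in 4 of the 13 lower ones (30.8%). CAGNGTG is in 4.58% of all windows and in 2 of the 13, TACGTG in 6.09% and in 1 of the 13, that of HNT1. The Gcn4 letters TGACTC are in 6.30% of all windows and in 2 of the 13, and CACGTG, which shares the letters ACGTG with TACGTG, in 3.43% and in 0 of the 13.

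Most of these differences had the same sign without DTT, in flasks of the same cultures. Of the 15, 13 had the same sign in untreated cells, and 4 were called there too, namely SER3, PTR2, YHB1 and SIM1, among 9 calls in 5179 clusters (0.174%). Over the 4064 better measured clusters, 57.0% had the same sign. YHB1 differed more without DTT, with 630.0 counts in snf2Q928K, 7900 in snf2W935R and 9882 in wild type (log2 difference -3.65 ± 0.43, Benjamini-Hochberg adjusted p = 8.29e-14). DDR2 and MNC1 were the 2 with the other sign, and neither was called untreated. DDR2 had 300 counts in snf2Q928K, 277 in snf2W935R and 900 in wild type. MNC1 had 243 counts in snf2Q928K, 216 in snf2W935R and 363 in wild type. The differences with DTT minus untreated, -2.41 at DDR2 and -2.33 at MNC1, were not called with either SE.

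Whether the difference between the mutants itself differed between DTT and untreated cells was tested in 5178 clusters, and none was called with the summed SE (0%). The smallest adjusted p was 0.111, and 41 clusters had an unadjusted p under 0.05 in this Wald test. With the SE of the mutant arms 182 had an unadjusted p under 0.05 and 3 were called (0.0579%), HO, YBR085C-A and YGR176W, each at a Benjamini-Hochberg adjusted p of 0.0126. HO, the mating-type switching endonuclease and a textbook Swi/Snf target, had 3.24 counts in snf2Q928K, 9.25 in snf2W935R and 148 in wild type with DTT. Untreated HO was under the floor in snf2Q928K, at 0.155, with 143 in snf2W935R and 739 in wild type. YBR085C-A had 17331 counts in snf2Q928K, 11491 in snf2W935R and 6959 in wild type with DTT, and untreated 12763 in snf2Q928K, 2246 in snf2W935R and 1531 in wild type. At YBR085C-A the mutants thus lay 1.51-fold apart with DTT and by 2.51 on the log2 scale without it. YGR176W, whose cluster overlaps ERG1, had 98.5 counts in snf2Q928K, 31.3 in snf2W935R and 351 in wild type with DTT, and untreated 97.5 in snf2Q928K, 264 in snf2W935R and 381 in wild type. In wild type DTT raised 6 of the 15 clusters, lowered 5 and left 4 uncalled in the authors' deposited table, where 33.8% of all clusters were called.

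**Figure D4:**
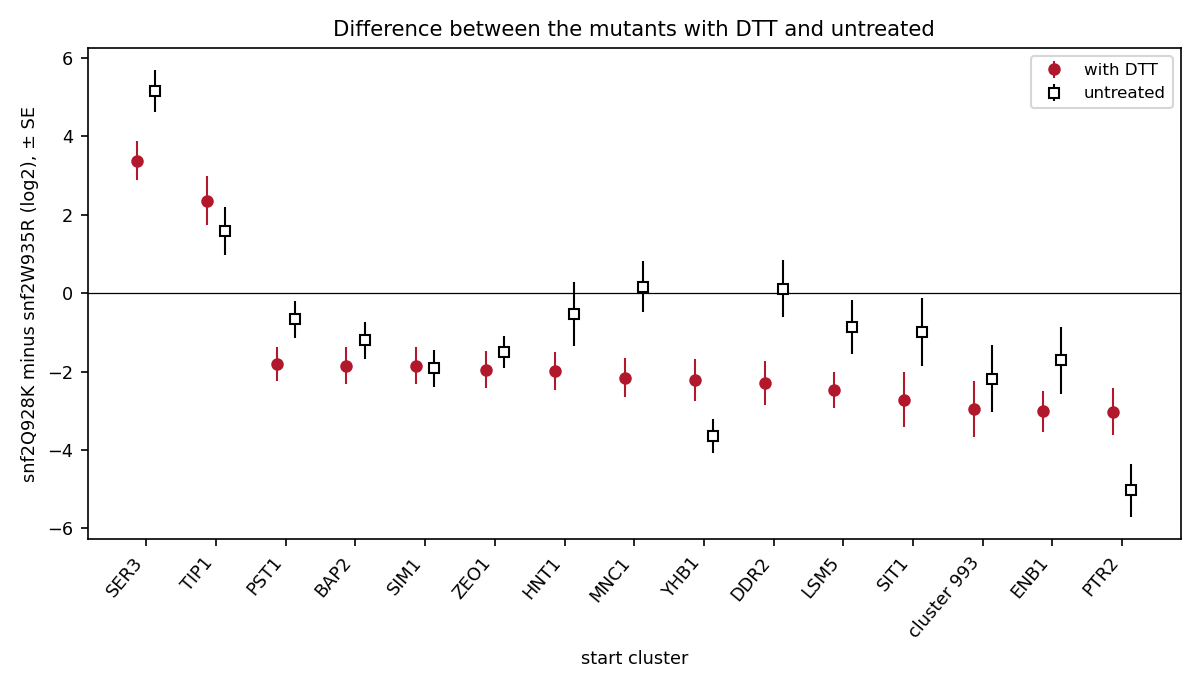
Log2 difference of snf2Q928K minus snf2W935R (vertical axis, with bars of 1 summed SE) at the 15 called clusters, with DTT as filled circles and untreated as open squares. SER3 is at 3.38 with DTT and 5.15 untreated, DDR2 and MNC1 are the 2 whose untreated value lies above 0 while their DTT value lies below it.

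With the narrower SE of the mutant arms, 54 clusters were called (1.04%), 18 higher in snf2Q928K (0.347%) and 36 lower (0.693%), all 15 above among them. The other 39 were named after their values were seen. Their higher members included genes of sulfur amino acid, sterol and sugar metabolism. MET6, methionine synthase, had 1537 counts in snf2Q928K, 457 in snf2W935R and 270 in wild type (log2 difference 1.75 ± 0.36, adjusted p = 0.000335, Benjamini-Hochberg, SE of the mutant arms). SAM3, the S-adenosylmethionine permease, had 454 counts in snf2Q928K, 111 in snf2W935R and 145 in wild type. SAM1, S-adenosylmethionine synthetase, had 750 counts in snf2Q928K, 287 in snf2W935R and 479 in wild type. The mutants lay 3.37-fold apart at MET6, 4.10-fold at SAM3 and 2.61-fold at SAM1, and the 3 clusters were, with the summed SE, uncalled at adjusted p of 0.185, 0.733 and 0.975 (Benjamini-Hochberg).

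The sterol genes higher in snf2Q928K with that SE were CYB5, ARE2, ERG13 and a cluster of ERG11. ERG11, lanosterol demethylase, had 1898 counts in snf2Q928K, 820 in snf2W935R and 279 in wild type at that cluster. The main ERG11 cluster had a log2 difference of 0.86 and was not called with either SE. CYB5, cytochrome b5, an electron donor in sterol synthesis, had 686 counts in snf2Q928K, 216 in snf2W935R and 812 in wild type. At CYB5 snf2Q928K was the mutant near wild type, and at the called ERG11 cluster both mutants were above it. TDH1, a glyceraldehyde-3-phosphate dehydrogenase, had 513 counts in snf2Q928K, 114 in snf2W935R and 305 in wild type, and PDC1, pyruvate decarboxylase, 44838 in snf2Q928K, 19503 in snf2W935R and 36962 in wild type. WTM1, IDP1, PRY1 and 4 intergenic clusters completed the higher set with TIP1 and SER3.

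Among the clusters lower in snf2Q928K with the SE of the mutant arms were stress and wall genes. GPX2, a thiol peroxidase, had 59.7 counts in snf2Q928K, 314 in snf2W935R and 392 in wild type (log2 difference -2.39 ± 0.54, adjusted p = 0.00255, Benjamini-Hochberg, SE of the mutant arms). ENA1, a sodium pump, had 32.7 counts in snf2Q928K, 177 in snf2W935R and 105 in wild type. SED1, the most used of these clusters, for a major wall protein, had 35723 counts in snf2Q928K, 90219 in snf2W935R and 104433 in wild type. CIT2, the peroxisomal citrate synthase, had 1075 counts in snf2Q928K, 3971 in snf2W935R and 1022 in wild type. CIT2 was thus a case in which snf2Q928K lay near wild type and snf2W935R above it. The kinase HOG1, the reductase GRE2, the glucan synthase GSC2 with both of its clusters, MID2, DSE1, NVJ1 and PLB3 were in the same set. So was an upstream start of the Swi/Snf subunit gene SNF11, with 6.34 counts in snf2Q928K, 43.5 in snf2W935R and 145 in wild type. The main SNF11 cluster had 200 counts in snf2Q928K, 319 in snf2W935R and 103 in wild type, and was not called with either SE. Of the 54, the sign was the same without DTT in 41.

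Gene lists gave a view of pathways as a whole, each gene being represented by its most used cluster by the mean over both mutants. Of 38 lists 37 had a measured member, 7 held a member called with the summed SE and 12 with the SE of the mutant arms. The lists overlap, so 1 called gene can count in more than 1 list. SER3 is in the serine list and among the textbook Swi/Snf targets, and PST1 in the cell wall and daughter cell lists. Over all clusters the median log2 difference was -0.01, and over the main clusters of 3728 genes it was -0.03. Of these 3728, 1790 were above 0 and 1938 below, and the SE of the mutant arms called 12 higher and 23 lower. Sulfur amino acid genes had a median of 0.58, with 22 of 26 above 0 and 3 called higher with the SE of the mutant arms only. Their medians over wild type in the authors' deposited tables were 0.93 in snf2Q928K and -0.13 in snf2W935R. Ergosterol genes had a median of 0.53, with 23 of 28 above 0, and glycolysis and fermentation genes 0.36, with 21 of 25 above 0. Thiol redox genes had a median of -0.27 with 19 of 26 below 0, and daughter cell genes -1.17 with 10 of 14 below 0. The members of a list share the same 4 mutant libraries and are not independent, and no list was tested as a set.

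Genes of the secretory pathway, which DTT disturbs, were also listed. None of 16 ER folding genes, 18 of ER-associated degradation, 36 of translocation and glycosylation, 29 of vesicle coats and cargo receptors or 5 of unfolded protein response signalling was called with either SE, and their medians lay between -0.07 and 0.05. With 0.289% of all clusters called by the summed SE and 1.04% by the SE of the mutant arms, no call among these genes is near the background share. KAR2 had 4649 counts in snf2Q928K, 3804 in snf2W935R and 13516 in wild type. The log2 difference of KAR2 between the mutants was 0.29, with a 95% interval from -0.61 to 1.18. The HAC1 start, shared in the authors' assignment with YFL032W, had 143202 counts in snf2Q928K, 134802 in snf2W935R and 143856 in wild type (log2 difference 0.09, interval from -0.66 to 0.84). The kinase gene IRE1 had 121 counts in snf2Q928K, 116 in snf2W935R and 77.5 in wild type. Ribosomal protein genes, 129 in number, had a median of 0.11 and no call. Across the 25 lists with no call by either SE the medians ran from -0.40 to 0.56.

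**Figure D5:**
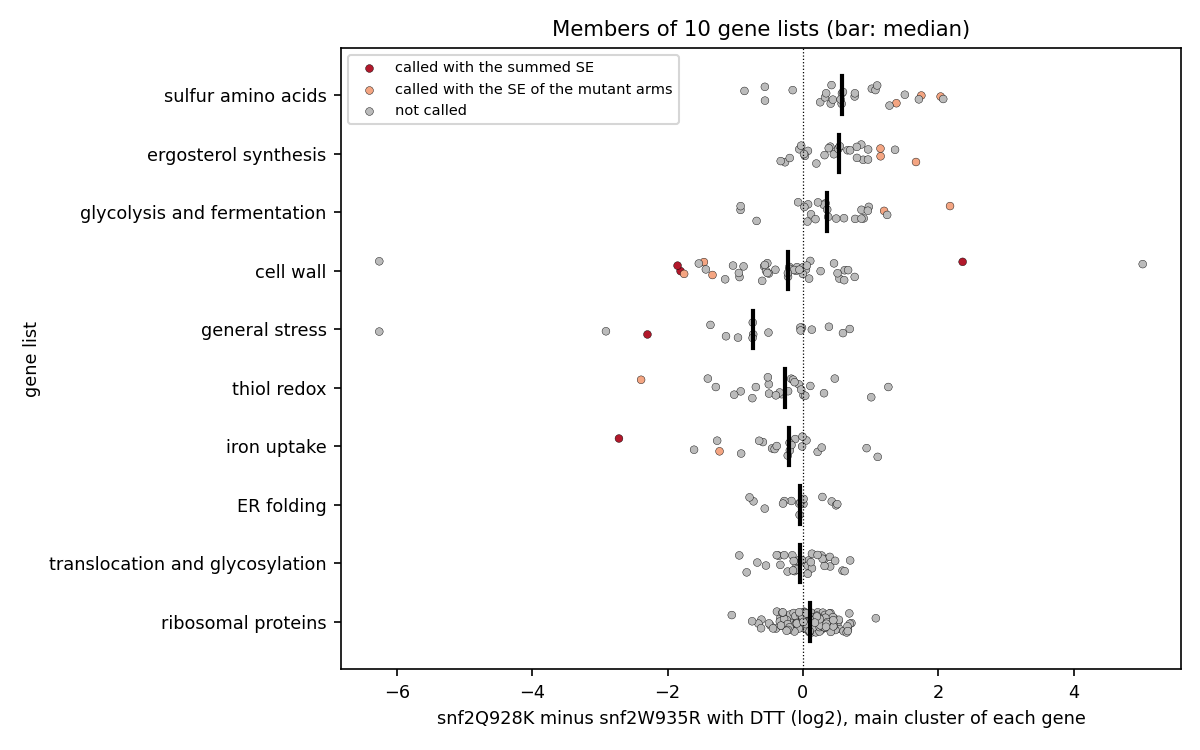
Log2 difference of snf2Q928K minus snf2W935R with DTT (horizontal axis) for the main cluster of each member of 10 gene lists (rows), with the median as a black bar, members called with the summed SE in dark red, members called with the SE of the mutant arms in orange and the rest in grey. The medians run from -0.73 for general stress to 0.58 for sulfur amino acids, with ER folding at -0.04.

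The RNA of the mutated gene was measured in all 3 genotypes. SNF2 had 54.3 counts in snf2Q928K, 77.4 in snf2W935R and 91.5 in wild type with DTT. The log2 difference was -0.51 ± 1.04, not called, and the substitutions do not remove the start, so these counts do not test the genotype labels. SWI3, for another core subunit, had 281 counts in snf2Q928K, 286 in snf2W935R and 345 in wild type. Of 7 genes of a-type haploid cells 6 had a cluster, with summed counts of 4326 in snf2Q928K, 4633 in snf2W935R and 8382 in wild type, and none of 6 genes of alpha cells had one.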

How the data were processed

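TL-seq sequences the 5′ ends of polyadenylated RNA. The submitters' processing notes name cutadapt, HISAT2 and DESeq2 and the build sacCer3/R64; their versions and settings are not given in the sources used. The authors deposited mean normalized counts, a normalized signal averaged over the libraries of a table. The log2 fold changes and their SEs, also as a log2 value, were deposited by the authors, as was the Wald statistic, a score equal to their ratio. The p-value columns, raw and adjusted, were deposited by the authors too. Tables were joined by cluster number. Group means were solved from the deposited mean and fold change, and snf2W935R levels were put on the scale of the snf2Q928K table by a shift of 0.145 log2 units. The wild-type means from both DTT tables then differed by a robust SD of 0.00119 log2 units. For the SE of the mutant arms, the dispersion was solved from each deposited SE and the wild-type term left out; 55 clusters with an arm at or under 3 counts over the group, or a negative dispersion, kept the summed SE. The 1 gene cell that differed between the DTT tables was read from the other table. Tests were two-sided Wald tests. They were also run on simulated data drawn with the variance that the tests assume. That run therefore cannot show whether the SEs hold in these libraries. Replicates come from separate days, and no batch can be separated. Named were all called clusters, HNT1, KAR2, HAC1, SNF2, SWI3, the called start choices and DTT-dependent clusters, and called or extreme members of the gene lists; other genes were chosen after their values were seen. The comparison and the lists were chosen with earlier results of these data known. Alternatives covered the SE, centring, filters on low counts, the join, the threshold and the choice of clusters. Python 3.11.15, pandas 2.3.3, numpy 2.4.6, scipy 1.17.1 and matplotlib 3.10.9 were used.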

Additional observations from a re-analysis of the deposited data

How the results depend on the processing

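With the SE of the mutant arms the calls between the mutants with DTT numbered 54 in place of 15, the calls for DTT minus untreated 3 in place of 0, and the genes with a different start choice 5 in place of 1; the summed SE counts the wild-type libraries in both terms. At an adjusted p under 0.01, 4 clusters were called, 1 higher and 3 lower. Subtracting the median difference, requiring means of at least 10 or 50, keeping the 5187 clusters whose wild-type means matched, or requiring a 2-fold difference gave the same 15 clusters. Using the most upstream and most downstream cluster of a gene left 1 gene called for start choice. The upstream HNT1 cluster was called under each alternative SE, centring, filter and join, with adjusted p between 1.00e-05 and 0.0328 (Benjamini-Hochberg, Wald test), but is not among the 4 clusters under 0.01. The start-proximal HNT1 cluster, at 0.95 or 0.97, was called under none. No paired analysis was possible because the tables hold no values per library, and leaving out a replicate was not run for the same reason. With 2 libraries a group, a median SE of 0.614 over the better measured clusters, and 0.435 for the mutant arms, limits what could be called.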

Other observations

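Intergenic starts, named after their values were seen, made up 11 of the 54 clusters called with the SE of the mutant arms. They were 708 of the 5193 clusters tested (13.6%). With that SE 1.55% of the intergenic clusters were called, against 1.04% of all clusters, and with the summed SE 0.141%, against 0.289%. Cluster 6484 (chromosome XIII, 410286 to 410352, minus strand), which overlaps the coding region of MOT3, had 1095 counts in snf2Q928K, 2648 in snf2W935R and 2922 in wild type with DTT. Untreated, cluster 6484 had 25.5 counts in snf2Q928K, 15.0 in snf2W935R and 27.1 in wild type, in tables scaled separately. Cluster 1533 (chromosome IV, 32631 to 32681, minus strand), over the coding region of PHO13, had 141 counts in snf2Q928K, 17.9 in snf2W935R and 137 in wild type with DTT. At cluster 1533 it was snf2W935R that stood below wild type. Neither cluster was called with the summed SE.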
